A study of Mus musculus with 8 samples.

Results

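The comparison described here is between 2 RNAseq libraries of GFP+ (mG+) cells from visceral adipose tissue (VAT) of chow-fed mice, 1 labelled EC-*Tert*-KO and 1 labelled WT. They were chosen by their labelled tissue, diet and genotype, and they are 2 of the 8 libraries in the series. The KO library comes from *Tie2e*-cre; *Tert* fl/fl; mTmG females aged 8 months and the WT library from *Tie2e*-cre; *Tert*+/+; mTmG females of the same age. Both genotypes therefore carry the Cre transgene, driven in endothelial cells (EC) by the *Tie2e* promoter, and the mTmG reporter, which switches from membrane tdTomato to membrane GFP in a cell where Cre has acted. GFP+ cells were isolated from the tissue by FACS, and the sources used here do not say how many mice gave the cells of each library. The other 6 libraries form KO and WT pairs from SAT (subcutaneous adipose tissue) on HFD (high-fat diet), SAT on chow and muscle on chow, and they are used only to set values beside those of VAT.

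TERT is the catalytic subunit of telomerase, the enzyme that extends telomeres, and EC in which telomeres become short can enter senescence, a lasting arrest with secretion of inflammatory factors. EC of adipose tissue form the capillaries that pass lipid to adipocytes, lie on a basement membrane they share with mural cells (pericytes and smooth muscle), and continue into arterial, venous and lymphatic vessels. The TEK (Tie2) receptor is best known from EC, and Tie2 promoters are also known to act in part of the blood lineage, so that sorted cells of a Tie2-driven reporter can include leukocytes.

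Values are the authors' counts of reads per gene. The WT library had 9389345 counts over 22854 genes and the KO library 14344720 counts over 20922 genes. A fold change is given on the log2 scale, as the KO level over the WT level in CPM (counts for every 1000000 counts of the library as scaled by TMM). To each count a prior of 0.5 was added. Its interval is the exact 95% conditional binomial interval of the ratio. With 1 library per genotype there is no replicate check: the interval of a gene covers counting error only, no p-value can be given, and every difference is one between these 2 libraries. Where a median over a list of genes is given, its interval was read from the ordered values of those genes. Such an interval describes the spread between genes, which are not replicates, and holds neither counting error nor the spread between mice. Of 54532 genes in the table, the 16439 whose counts averaged 10 or more over the 2 libraries were compared. A gene is called higher or lower in KO below when its whole interval lies beyond 2-fold.

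By this rule, 395 genes (2.4%) were higher and 344 genes (2.09%) were lower in the KO library. The interval lay above equality for 4380 genes (26.6%) and below it for 4054 (24.7%), and the median log2 fold change over all 16439 genes was 0.01. All counts of intervals above or below equality in the lists described later are to be read against these 2 shares. The balance between the directions depended on the processing: 368 were higher and 380 lower with DESeq2 size factors, 359 and 390 with upper quartile scaling, 362 and 393 with the gene length trend removed, and 521 and 959 with no filter on low counts. Among the gene lists described below, those of mural cells, collagens and immunoglobulins held called genes that were mostly higher in the KO library, and those of lymphatic EC and skeletal muscle fibres called genes that were lower. Most of the 15 protein-coding genes with intervals furthest above equality lay outside these lists.

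**Figure D1:**
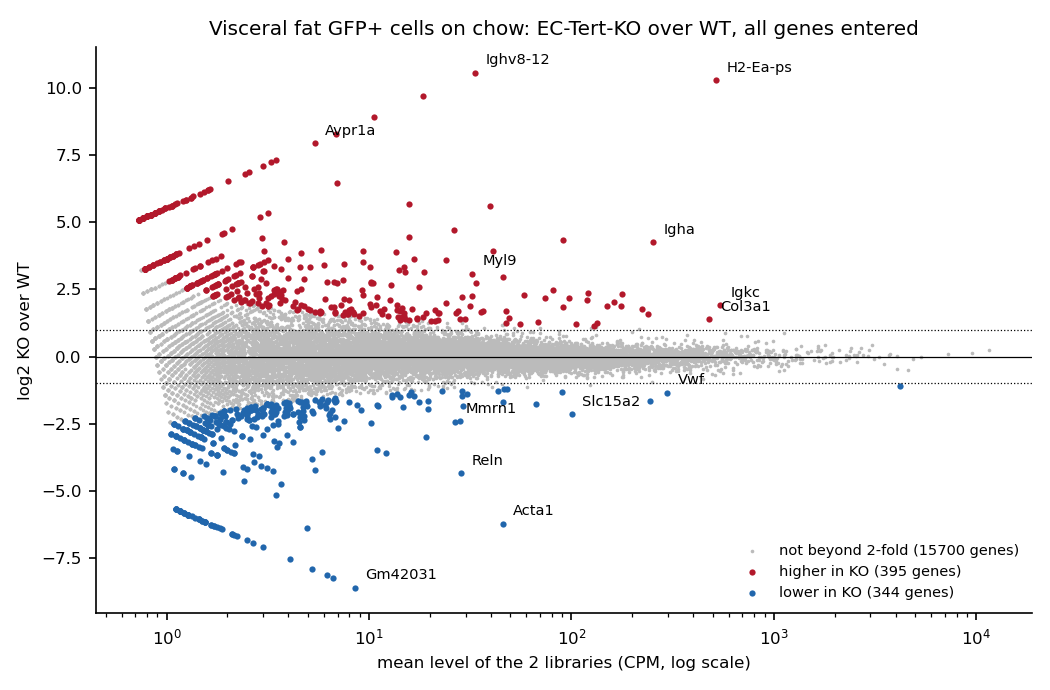
Log2 KO over WT (vertical axis) against the mean level of the 2 VAT libraries (horizontal axis, CPM, log scale), with 1 point for each of the 16439 genes compared. Red points (395) and blue points (344) are genes whose 95% counting interval lies wholly beyond 2-fold, and the dotted lines mark 2-fold. Most genes above 100 CPM lie near 0, while *H2-Ea-ps*, *Igha*, *Igkc* and *Col3a1* stand above and *Vwf*, *Slc15a2* and *Acta1* below.

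The targeted gene does not tell the 2 libraries apart. *Tert* (ENSMUSG00000021611, on chromosome 13 of GRCm38 from 73626911 to 73649843) was counted 3 times in the library labelled WT and 9 times in the one labelled EC-*Tert*-KO, 0.90 on the log2 scale with an interval from −1.02 to 3.50. The point value goes against the label, the counts lie near the floor of 3 counts, and where the floxed part lies within the gene is not known from the counts, so a count from outside it would check nothing. All directions below are therefore those of the library labelled EC-*Tert*-KO. Of the 52 genes compared within 5 Mb of *Tert*, 2 were higher (*Trip13* and the antisense transcript *A830082K12Rik*) and 2 were lower (*Adamts16* and the pseudogene *Gm15740*). *Trip13*, a AAA-ATPase of the mitotic and meiotic checkpoint, had 8 counts in WT and 55 in KO, 2.12 (1.10 to 3.46). The 4 genes called were 7.69% of the 52, against 4.50% of all genes compared, and within 10 Mb 2 of 102 were higher and 3 lower, or 4.90%. *Adamts16*, a secreted metalloprotease, had 79 and 40 counts, −1.57 (−2.17 to −1.02).

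The other telomere genes were close to equal. Of 16 genes of telomerase and the shelterin and CST complexes, 15 could be compared, and none was called higher or lower. Their median log2 fold change was 0.07 (−0.23 to 0.23), with 3 intervals above equality and 2 below. *Gar1*, a protein of the telomerase and H/ACA ribonucleoprotein, was the highest, with 58 counts in WT and 165 in KO, 0.90 (0.47 to 1.36). *Terf2*, the shelterin protein that guards the telomere loop, had 185 and 405 counts, 0.53 (0.27 to 0.79), and *Stn1*, a CST subunit, had 141 and 167, −0.36 (−0.69 to −0.03).

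A pair of genes separated the VAT libraries almost completely, and did so in the same direction in the other pairs from chow-fed mice. *H2-Ea-ps* (chromosome 17, positions 34342933 to 34344643) is the gene for the alpha chain of the class II MHC molecule I-E, and it is annotated as a pseudogene in the reference strain, since some inbred mouse haplotypes do not express it. Its counts were 7 in WT and 14205 in KO, 10.30 (9.34 to 11.70), and had the largest gain in CPM of all genes called. In SAT on chow the WT and KO libraries had 0 and 5496, in muscle 3 and 2291, and in SAT on HFD 0 and 0. The positions above are those of the deposited table, and those below are from GENCODE M21. The first 120 bases of its annotated transcript (GRCm38, chr17:34344526-34344645, minus strand) are shown because of this gain in CPM. They read:

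H2-Ea-ps: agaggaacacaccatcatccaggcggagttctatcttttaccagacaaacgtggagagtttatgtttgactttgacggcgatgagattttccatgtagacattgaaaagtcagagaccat

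The long intergenic RNA *Gm42031* (chromosome 8, from position 85125872) ran the other way. It was counted 154 times in the WT library and never in the KO library, at least 78-fold lower in KO when the KO library is put at 3 counts. It had 87 and 0 counts in SAT on chow, 202 and 0 in muscle, and 1 and 1 in SAT on HFD. *Gm11127*, a class I MHC gene of the same region of chromosome 17 as *H2-Ea-ps*, had 0 and 67 counts in VAT, at least 14.7-fold higher in KO, 0 and 33 in SAT on chow, 0 and 8 in muscle, and 0 in both SAT HFD libraries. On these 3 genes, which were singled out after their values were seen, the VAT libraries divide by label as the other chow libraries do. *Tert* had 70 and 11 counts in SAT on chow and 24 and 7 in muscle. In SAT on HFD it had 114 and 0 counts, yet none of the 3 genes divided those libraries. The 3 genes are therefore no check of the *Tert* genotype. Class I genes of this region have near-identical copies, so the counts of *Gm11127* are uncertain. The strain background of the WT and KO mice is not given in the sources used here, and genotype and background cannot be told apart in any of these differences. Of the 11 class II genes, *H2-Ea-ps* among them, 7 had an interval above equality and 2 below. *H2-Ab1* had 30077 and 45116 counts, −0.02 (−0.04 to 0.00), and *H2-Aa* 36050 and 55773, 0.03 (0.01 to 0.04). *H2-DMb2*, a chain of the peptide exchange factor H2-DM, had 303 and 961, 1.06 (0.87 to 1.25), and *H2-DMb1* 2682 and 2905, −0.49 (−0.56 to −0.41).

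EC markers were present in both libraries, as were markers of macrophages. Over 20 EC genes, the median level was 92.5 TPM (which, unlike CPM, corrects for gene length) in WT and 68.9 TPM in KO, and over 15 genes of resident macrophages it was 813 TPM in WT and 703 TPM in KO. The defining macrophage genes *Csf1r* (18438 and 24979 counts) and *Mrc1* (20581 and 26959 counts) and the pan-EC genes *Pecam1* (4092 and 4924) and *Cdh5* (2719 and 2993) were thus all measured well. The label EC is accordingly not that of a pure population in these libraries. In such bulk samples, fewer cells of a type and less RNA per cell cannot be told apart.

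EC genes were modestly lower in the library labelled EC-*Tert*-KO. Of the 20 pan-EC genes, 16 had an interval below equality and 1 above it (the latter *Cldn5*, a tight junction claudin, at 0.52), and their median was −0.29 (−0.42 to −0.16). Among all genes compared, 24.7% had an interval below equality. Only *Vwf*, which encodes the platelet-binding von Willebrand factor stored in EC granules, was called lower, with 3846 counts in WT and 2299 in KO, −1.35 (−1.42 to −1.27). *Ptprb*, the EC phosphatase VE-PTP, followed at −0.62 (−0.68 to −0.56), the angiopoietin receptor *Tek* at −0.59 (−0.71 to −0.46) and VE-cadherin, *Cdh5*, at −0.47 (−0.54 to −0.39). The summed level of the list was 3835 CPM in WT and 2917 CPM in KO.

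Most arterial and venous genes had an interval below equality or spanning it, and those of capillary lipid uptake were divided. The intervals of both the arterial and the venous median spanned equality. Of 10 arterial genes, 6 had an interval below equality and none above, with a median of −0.38 (−0.51 to 0.05), and *Sema3g* was the lowest at −0.62 (−0.75 to −0.48). Of 7 venous genes, 5 lay below and 2 above, with a median of −0.62 (−1.35 to 0.44). The 2 above were *Nr2f2* (COUP-TFII, which specifies venous identity) at 0.35 (0.08 to 0.64) and the adhesion molecule *Vcam1* at 0.44 (0.33 to 0.54). Among 10 genes of capillary fatty acid transport, 4 lay above and 4 below: the lipid-binding protein *Fabp4* had 3684 and 10196 counts, 0.86 (0.81 to 0.92), the fatty acid translocase *Cd36* had 13677 and 28263, 0.44 (0.41 to 0.47), and the water channel *Aqp1* had 7464 and 7385, −0.62 (−0.67 to −0.57).

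Most genes of lymphatic EC were lower in the KO library. Of the 8 genes of the list, 6 were called lower and none higher, against 2.09% of all genes called lower, and the median was −2.20 (−6.05 to 0.29). *Reln*, the secreted glycoprotein reelin, which lymphatic EC release, had 492 counts in WT and 36 in KO, −4.35 (−4.91 to −3.89). *Mmrn1* (multimerin 1) had 404 and 114, −2.42 (−2.74 to −2.13), and *Prox1*, the homeobox factor that specifies lymphatic identity, had 131 and 50, −1.98 (−2.49 to −1.51). *Flt4*, the receptor for VEGF-C (VEGFR3), had 410 and 175, −1.83 (−2.10 to −1.57). The lymphatic EC chemokine gene *Ccl21a* had 50 and 4, but it has near-identical copies in the genome and its counts are uncertain. *Tbx1*, a T-box factor upstream of *Flt4*, had 26 and 0 counts, at least 13.2-fold lower. The 2 genes not called were *Lyve1*, a hyaluronan receptor also made by resident macrophages, at 0.17 (0.11 to 0.23), and *Pdpn*, at 0.29 (−0.18 to 0.78).

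Immunoglobulin constant and V genes, described below, had medians of 2.11 and 2.73. Apart from these, mural cell genes had the highest median of the lists with 6 or more genes compared. Of 12 mural genes, all compared, 7 were called higher and none lower, against 2.4% of all genes called higher, 10 had an interval above equality, and the median was 1.73 (0.88 to 2.18). Their summed level was 250.5 CPM in WT and 844 CPM in KO. *Acta2*, smooth muscle alpha-actin, had 222 counts in WT and 1879 in KO, 2.48 (2.28 to 2.69), and *Myh11*, the smooth muscle myosin heavy chain, had 180 and 1329, 2.28 (2.06 to 2.51). *Notch3*, the Notch receptor of mural cells, had 240 and 1653, 2.18 (1.98 to 2.38). The pericyte genes were higher as well: *Rgs5*, a regulator of G protein signaling, by 1.87 (1.74 to 2.0), the potassium channel subunits *Abcc9* and *Kcnj8* by 1.88 (1.60 to 2.17) and 1.77 (1.33 to 2.26), and the PDGF receptor *Pdgfrb* by 1.69 (1.47 to 1.91). The exceptions were the intermediate filament gene *Des*, with 272 and 395 counts, −0.07 (−0.29 to 0.16), and *Tagln* (SM22), with 12 and 26, 0.50 (−0.53 to 1.63).

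Contractile genes of smooth muscle, a list drawn up after the values had been seen, were higher to unequal degrees. Of its 16 genes, 7 were called higher, against 2.4% of all genes, and 13 had an interval above equality. *Myl9*, a regulatory light chain of smooth muscle myosin, was the highest, with 61 counts in WT and 790 in KO, 3.08 (2.71 to 3.49). *Myocd*, the coactivator of serum response factor (SRF) in smooth muscle, had 3 and 30 counts, 2.57 (1.03 to 5.08), a call lost with DESeq2 size factors and upper quartile scaling, and gamma-actin of enteric smooth muscle, *Actg2*, had 12 and 102, 2.44 (1.62 to 3.48). The tropomyosins *Tpm1* at 0.60 (0.46 to 0.73) and *Tpm2* at 0.15 (−0.11 to 0.41) stood lower in the list.

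SRF binds the CArG box, an A/T-rich element flanked by CC and GG that is known from promoters of muscle genes. The RefSeq windows of 250 bases before the start site (GRCm38.p6, both strands read alike since the element is its own reverse complement in form) hold a CArG box in 482 of 32851 promoters, or 1.47%. Of the smooth muscle contractile genes, 12 had a window and only that of *Myl9* held the element. Of the mural genes, 9 had a window and none held it. Sequence outside these windows was not searched, so a gene without a match may still have the element elsewhere. Of the skeletal muscle fibre genes described below, 24 had a window, and those of *Acta1* and *Myh4* held it. The windows of *Myl9* (chr2:156775214-156775419, plus strand, ended before the annotated first exon) and *Acta1* (chr8:123894776-123895025, minus strand) are shown, with the CArG box in capitals, because these are the contractile genes with the highest and the lowest well-counted values in the comparison. The element starts 161 bases before the RefSeq start site in *Myl9* and 73 bases before it in *Acta1*. The printed window of *Myl9* has 206 bases and stops short of that site.

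Myl9: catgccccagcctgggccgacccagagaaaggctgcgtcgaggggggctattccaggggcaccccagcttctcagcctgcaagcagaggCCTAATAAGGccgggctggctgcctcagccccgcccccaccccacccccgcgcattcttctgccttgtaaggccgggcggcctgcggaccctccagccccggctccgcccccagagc

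Acta1: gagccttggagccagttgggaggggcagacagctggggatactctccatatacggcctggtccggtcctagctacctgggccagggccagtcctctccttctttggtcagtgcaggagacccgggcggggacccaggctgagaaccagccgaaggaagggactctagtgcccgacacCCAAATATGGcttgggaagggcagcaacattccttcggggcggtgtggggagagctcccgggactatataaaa

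These matches describe the letters of the windows and say nothing of binding.

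Collagen genes were higher in the KO library, above all those of collagens I, V and VI. Of 17 collagen genes, 9 were called higher and none lower, against 2.4% of all genes called higher. An interval above equality was found for 14 of them, and the median was 1.29 (0.64 to 1.79). The chains of collagen VI, a microfibrillar collagen of the adipose matrix, were the highest: *Col6a3* had 533 and 4078 counts, 2.33 (2.20 to 2.46), *Col6a2* 570 and 3570, 2.04 (1.92 to 2.17), and *Col6a1* 673 and 3804, 1.90 (1.78 to 2.02). Fibrillar collagen I was higher by 1.79 (1.68 to 1.89) for *Col1a1* (906 and 4751 counts) and by 1.58 (1.49 to 1.68) for *Col1a2*, and collagen III by 1.40 (1.33 to 1.46) for *Col3a1* (2381 and 9525 counts). *Col6a4*, a further collagen VI chain outside the list, had 10 and 240 counts, 3.93 (3.08 to 5.06).

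Basement membrane genes differed less. The collagen IV chains *Col4a1* and *Col4a2*, which EC and mural cells both lay down, were at 0.62 (0.55 to 0.68) and 0.64 (0.57 to 0.72). Among 14 laminin and other basement membrane genes, 7 had an interval above equality and 4 below, with no gene beyond 2-fold and a median of 0.14 (−0.21 to 0.38). The highest was *Sparc*, a collagen-binding matrix protein, at 0.79 (0.72 to 0.86), and the lowest of those compared was *Lama3*, at −1.02 (−1.27 to −0.77).

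Genes of fibro-adipogenic progenitors, the stromal cells that make most collagen I and III, were higher to a lesser degree than the collagens. Of 14 genes, 10 had an interval above equality and 2 below, and the 3 called higher are the collagens *Col1a1*, *Col1a2* and *Col3a1* that the list shares with the collagen list. *Pdgfra*, the receptor that defines these cells, had 358 and 1012 counts, 0.90 (0.72 to 1.07), *Lum* (lumican) was at 0.95 (0.80 to 1.09) and *Dcn* (decorin) at 0.63 (0.56 to 0.69). *Dpp4* and *Cd55*, markers of an early progenitor state, were at −0.33 (−0.47 to −0.18) and −0.24 (−0.39 to −0.09). The median of the list was 0.75 (0.10 to 1.40), and its summed level was 2300 CPM in WT and 4242 CPM in KO.

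**Figure D2:**
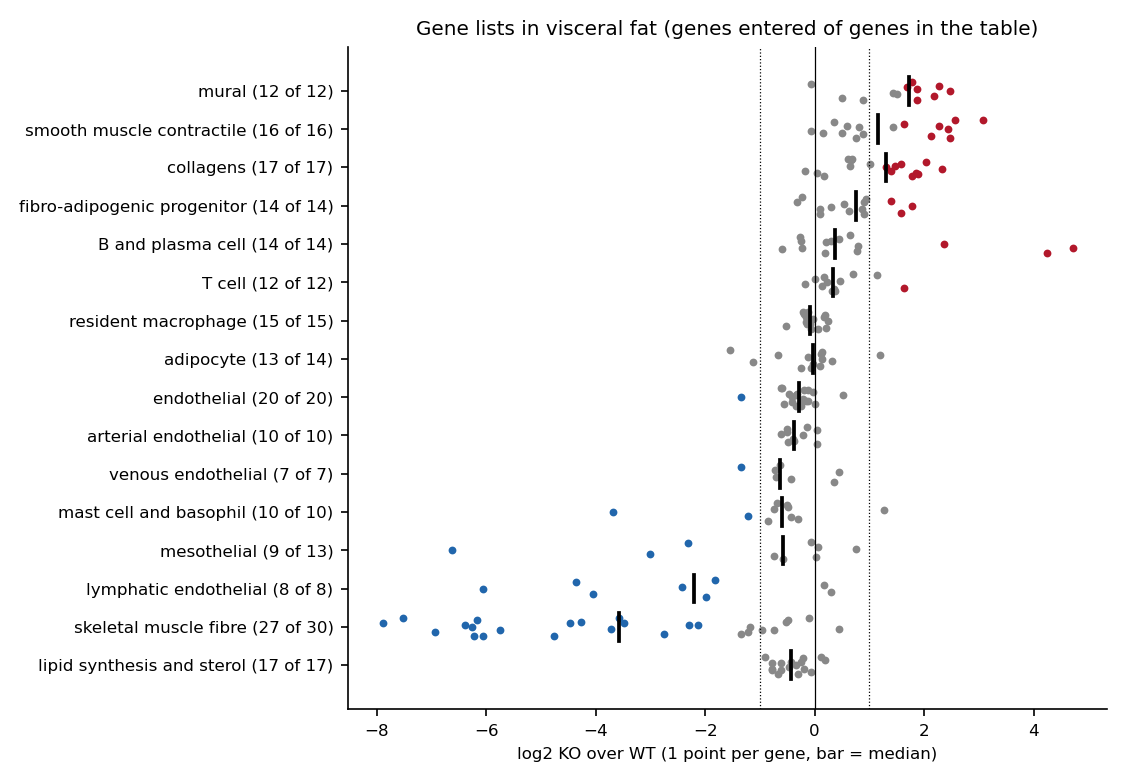
Log2 KO over WT in VAT (horizontal axis) for the members of 16 gene lists, 1 point per gene compared; red and blue points are called higher and lower, and black bars are medians. Mural, smooth muscle and collagen genes lie to the right of 0, lymphatic EC and skeletal muscle fibre genes to the left, and macrophage and adipocyte genes about 0.

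Most genes of skeletal muscle fibres were lower in the KO library. In a list of 30 muscle fibre genes, drawn up after these values had been seen, 27 could be compared. Of these, 18 were called lower, against 2.09% of all genes, and none higher, and the median was −3.57 (−6.05 to −1.22). Members such as *Myh1* and *Myh2* passed the minimum through their WT counts alone, and when genes had to average 50 counts the median was −1.21. The summed level of the list was 328.1 CPM in WT and 100.5 CPM in KO. *Acta1*, skeletal muscle alpha-actin, had 813 counts in WT and 16 in KO, −6.22 (−7.08 to −5.56). The count of *Acta1* in the VAT WT library exceeded that in the library of WT muscle, where it was 185 in a deeper library. The thin-filament crosslinker *Actn3* had 94 and 0 counts, at least 47.6-fold lower, and the muscle creatine kinase *Ckm* had 88 and 1, −6.39 (−12.38 to −4.55). *Xirp2* (73 and 0), *Klhl41* (48 and 0), *Myh2* (30 and 0) and *Myh1* (28 and 0), all of the sarcomere, were counted only in the WT library.

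Not every gene of the fibre was lower. The ryanodine receptor *Ryr1* had 198 and 411 counts, 0.45 (0.20 to 0.70), and glycogen phosphorylase *Pygm* had 217 and 305, −0.11 (−0.37 to 0.14). Of the genes of myogenic factors and satellite cells, a list also drawn up after the values had been seen, the single one with enough counts to be compared was *Sdc4*, a heparan sulfate proteoglycan of many cell types, with 2206 and 4163 counts, 0.31 (0.24 to 0.39). *Pax7*, the factor of satellite cells, had 18 counts in WT and 0 in KO, *Myf5* had 12 and 0, and *Myod1* 11 and 0, all below the mean of 10 counts that a gene needed to be compared. The part of muscle tissue carried into the WT sort in these differences was not tested.

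Immunoglobulin genes made up 0.108% of the counts in WT and 0.344% in KO. Plasma cells, the antibody-secreting stage of B cells, splice 1 rearranged variable (V) gene to a constant gene that sets the isotype (IgM, IgD, IgG, IgA), so constant genes report the isotypes and V genes the clones. Of the 11 constant genes compared, 7 were called higher and none lower, against 2.4% of all genes called higher. *Igha*, for IgA, had 227 counts in WT and 6568 in KO, 4.25 (4.06 to 4.45), and *Ighg3*, for IgG3, had 76 and 2367, 4.35 (4.03 to 4.71). *Ighg1* had 0 and 291, at least 63.8-fold higher. *Ighm*, for IgM, had 4867 and 12743, 0.79 (0.74 to 0.83), and *Ighd*, for IgD of mature naive B cells, had 260 and 334, −0.24 (−0.48 to 0.00).

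The makeup of the heavy chain constant counts thus differed between the libraries. *Ighm* took 81.3% of them in WT and 49.9% in KO, and *Igha* took 3.79% in WT and 25.7% in KO. Of the light chains, kappa, *Igkc*, had 2053 and 11698 counts, 1.91 (1.84 to 1.97), and lambda, *Iglc1*, had 17 and 692, 4.71 (4.05 to 5.53).

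**Figure D3:**
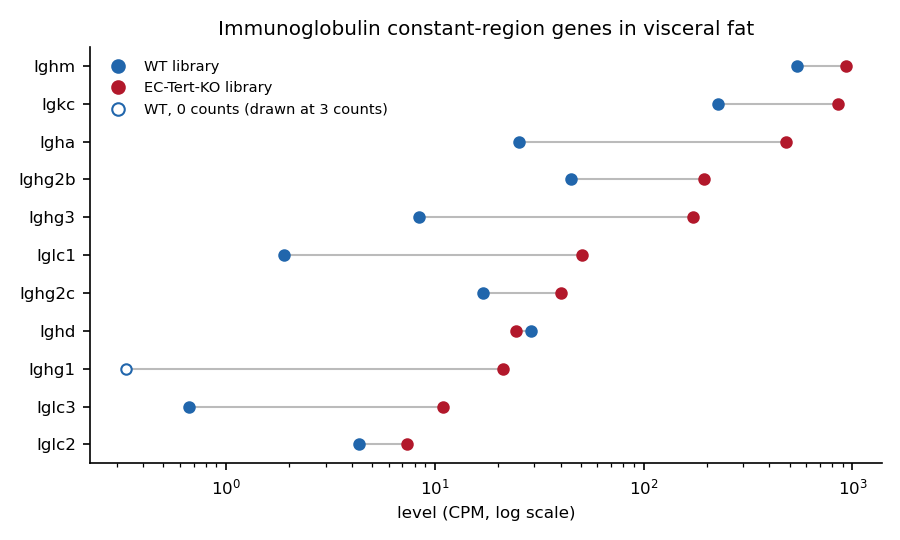
Levels of the 11 immunoglobulin constant-region genes compared (horizontal axis, CPM, log scale) in the WT library (blue) and the EC-*Tert*-KO library (red); the open point marks *Ighg1*, which had 0 counts in WT and is drawn at 3 counts. *Igha*, *Ighg3*, *Iglc1* and *Ighg1* lie furthest apart, and *Ighd* is the single gene that is higher in WT.

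V genes went both ways, and different heavy and kappa V genes led in each library. Of the 72 V genes compared, 40 were called higher and 15 lower, or 55.6% and 20.8%, against 2.4% and 2.09% of all genes. Of the V genes called, 14 of those higher had no count in WT and 9 of those lower had no count in KO. These 14 and 9 genes passed the minimum through their KO or their WT counts alone, so their calls follow in part from that filter. Heavy chain V counts summed to 790 over 49 genes in WT and to 4286 over 42 genes in KO. In WT the leading gene was *Ighv1-31*, with 119 counts, 15.1% of the heavy chain V counts (exact 95% binomial interval 12.6% to 17.7%), and it had 0 counts in KO. In KO it was *Ighv8-12*, with 916 counts, 21.4% (20.1% to 22.6%), and it had 0 counts in WT. The 5 leading heavy chain V genes took 38.7% of these counts in WT and 59.7% in KO, and the 5 leading kappa V genes 40% and 60.3%. Among the kappa genes *Igkv5-48* led in WT, with 112 counts and 0 in KO, and *Igkv14-126* led in KO with 1119. *Igkv1-122* and *Ighv2-5* had 504 and 189 counts in KO and 0 in WT. *Iglv1* led the lambda V genes in both libraries, with 45 of 72 counts in WT and 1048 of 1058 in KO. V genes resemble each other in sequence, and reads of a rearranged gene may be placed on a near copy, so that the names of single V genes are uncertain.

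Genes of B cells themselves went both ways by less than 2-fold. *Cd79a*, a chain of the B cell receptor, had 289 and 375 counts, −0.23 (−0.45 to 0.00), and *Ms4a1* (CD20) was at 0.30 (0.02 to 0.58). *Cd79b*, the partner chain of *Cd79a*, had 128 and 306 counts, 0.65 (0.35 to 0.96), and *Cr2* was at −0.60 (−1.16 to −0.04). *Jchain*, which joins the units of IgA and IgM, had 352 and 2772 counts, 2.37 (2.21 to 2.54), while *Sdc1* (CD138) was at 0.44 (0.26 to 0.62) and *Mzb1*, a chaperone of IgM assembly, at 0.77 (0.25 to 1.32). Of 11 genes compared of the plasma cell programme, a list drawn up after the values had been seen, 7 had an interval above equality and 1 below, only *Jchain* was called, and the median was 0.41 (−0.28 to 1.40). *Irf4*, a factor of plasma cell differentiation, had 1385 and 1737 counts, −0.28 (−0.38 to −0.17), and *Tnfrsf17* (BCMA), a survival receptor of plasma cells, 30 and 37, −0.30 (−1.03 to 0.44).

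T cell genes were slightly higher, led by the CD8 coreceptor. Of 12 genes, 8 had an interval above equality and 1 below, with a median of 0.34 (0.13 to 0.71). *Cd8a* had 84 and 398 counts, 1.64 (1.30 to 2.0), and was called higher, and *Cd8b1* had 85 and 286, 1.14 (0.79 to 1.51). *Cd4* was at 0.47 (0.23 to 0.71) and *Cd3e* at 0.01 (−0.23 to 0.26), so that the CD8 genes stood above the T cell genes in general.

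Myeloid genes differed little, with exceptions among mast cells and neutrophils. Of 15 genes of resident macrophages 5 had an interval above equality and 8 below, with a median of −0.08 (−0.17 to 0.17), and none was called. Of 10 genes of mast cells and basophils 7 lay below and 1 above, with a median of −0.59 (−1.21 to −0.30). *Mcpt4*, a mast cell chymase, had 586 and 384 counts, −1.21 (−1.40 to −1.02), and *Ms4a2*, the beta chain of the IgE receptor, had 30 and 3, −3.68 (−6.28 to −2.24). Among 11 neutrophil genes compared 6 lay below and 2 above, with a median of −0.33 (−0.63 to 0.81). The chemokine receptor *Cxcr2* was called lower, with 281 and 111 counts, −1.94 (−2.27 to −1.62), whereas *Mmp9* was at 0.02 (−0.03 to 0.08).

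Mesothelial genes were divided. The mesothelium is the layer that lines the peritoneum and covers visceral fat. *Muc16*, a membrane mucin, had 39 and 0 counts, at least 19.7-fold lower in KO, *Gpm6a* had 96 and 29, −2.31 (−2.98 to −1.72), and *Lrrn4* had 24 and 4, −3.01 (−5.18 to −1.65). *Wt1* had 61 and 89 counts, −0.06 (−0.55 to 0.44), and *Upk3b* 34 and 54, 0.06 (−0.58 to 0.73). Thus 3 of the 9 genes compared were called lower, against 2.09% of all genes, and the median was −0.58 (−3.01 to 0.06). Adipocyte genes had a median of −0.04 (−0.67 to 0.14), with none of 13 called.

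Apart from the lists, the protein-coding genes whose intervals lay furthest above equality held several receptors and regulators with no or few counts in the WT library. *Avpr1a*, the vasopressin receptor V1a, had 0 counts in WT and 148 in KO, at least 32.5-fold higher. *Gipr*, the receptor of the incretin GIP, had 1 and 85, 5.33 (3.29 to 11.13). *Lgr6*, a receptor for R-spondins, had 0 and 55, at least 12.1-fold higher. The nuclear progesterone receptor, *Pgr*, had 3 and 100, 4.29 (2.87 to 6.76), while the estrogen receptor *Esr1* had 233 and 341, −0.05 (−0.30 to 0.19). *Kcne4*, a potassium channel subunit, had 11 and 189, 3.45 (2.63 to 4.53), and *Tnfrsf8* (CD30) had 0 and 44, at least 9.65-fold higher.

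In the other pairs these receptors did not all move alike. *Pgr* had 72 and 486 counts in WT and KO from SAT on chow and 20 and 24 in muscle, but 21 and 0 in SAT on HFD. *Avpr1a* had 11 and 49 in SAT on chow, 8 and 10 in muscle and 0 and 63 in SAT on HFD, and *Gipr* had 0 and 12, 0 and 0, and 0 and 28 in the same order. The interval of *Avpr1a* spanned equality in muscle (−0.91 to 2.13) and lay above it in both SAT pairs, while that of *Pgr* in SAT on HFD lay below it. *Tnfrsf8* had an interval below equality in SAT on chow (91 and 20 counts) and muscle (61 and 14), and above it in SAT on HFD (41 and 127). That of *Lgr6* lay below equality in SAT on HFD (19 and 0 counts), above it in SAT on chow (19 and 42), and spanned it in muscle (0 and 1).

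The remaining genes of this rank were *Cpxm2* (1 and 78 counts), *Tbx5* (0 and 42), *Akr1cl* (0 and 40), *Tmc5* (0 and 37), *Gm11361* (33 and 606) and *Hmga1b* (24 and 372). *Hmga1b* and *Gm11361* resemble other genes closely and their counts are uncertain. Endothelin and angiotensin receptors of vascular smooth muscle were also higher: *Ednra* had 33 and 174 counts, 1.78 (1.25 to 2.38), and *Agtr1a* 23 and 103, 1.54 (0.90 to 2.28), which spans 2-fold. *Ednrb*, the endothelin receptor that EC express, had 4699 and 7240, 0.02 (−0.03 to 0.07). *Agt*, angiotensinogen, had 5 and 85, 3.38 (2.21 to 5.14).

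**Figure D4:**
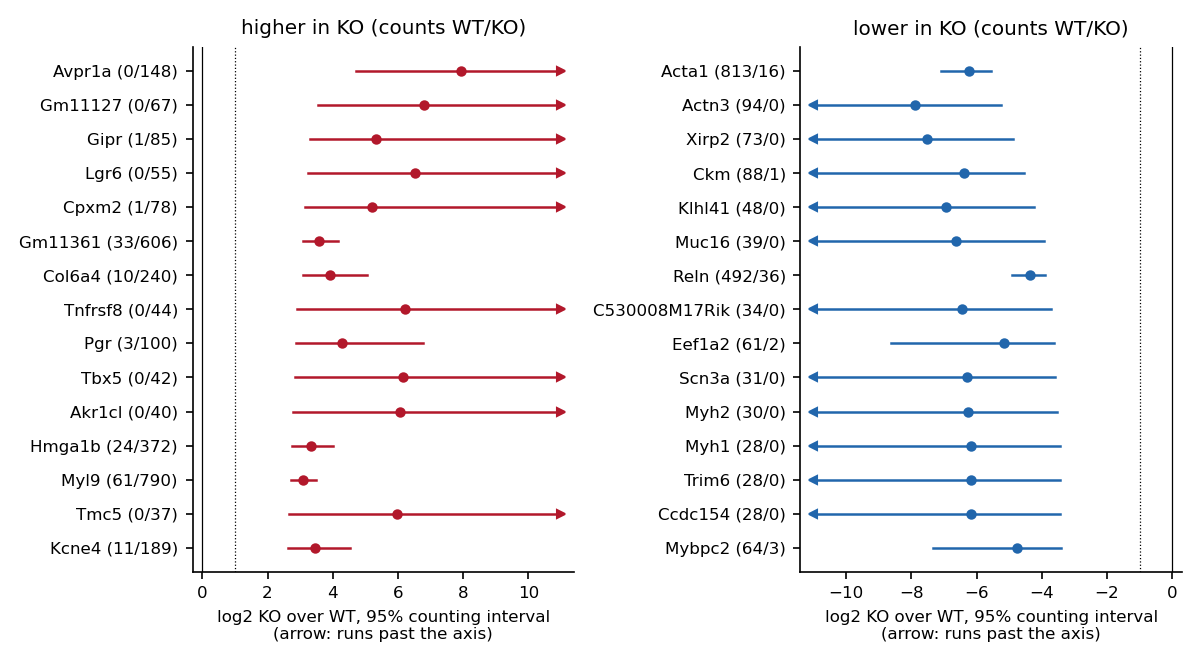
Log2 KO over WT with 95% counting intervals (horizontal axes) for the 15 protein-coding genes whose intervals lay furthest above equality (left, red) and furthest below it (right, blue), with the WT and KO counts in parentheses; arrows mark intervals that run past the axis. Genes with 0 counts in 1 library have intervals with no far end, and *Acta1*, *Reln*, *Gm11361*, *Hmga1b* and *Myl9* have the narrowest.

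Of the 15 protein-coding genes furthest below equality, 8 belong to the fibre list (*Acta1*, *Actn3*, *Xirp2*, *Ckm*, *Klhl41*, *Myh2*, *Myh1* and *Mybpc2*). That list was drawn up after these values had been seen, so the overlap carries no weight of its own. The others were *Reln* and *Muc16*, described above, *Eef1a2* (61 and 2 counts), the elongation factor of muscle and neurons, the sodium channel *Scn3a* (31 and 0), *C530008M17Rik* (34 and 0), *Trim6* (28 and 0) and *Ccdc154* (28 and 0). Lower genes with a high level in WT were few. *Slc15a2*, the oligopeptide transporter PEPT2, had 1476 counts in WT and 509 in KO, −2.14 (−2.29 to −1.99), and it was also lower in muscle, with 1694 and 31 counts, but not in SAT, with 242 and 566 counts on HFD and 389 and 757 on chow. The largest losses in CPM, beside *Vwf*, *Slc15a2* and *Acta1*, were those of *Gm26917* (51990 and 36555 counts) and *CT010467.1* (3326 and 1617 counts), which carry ribosomal RNA sequence. Ribosomal RNA-like genes took 0.611% of the counts in WT and 0.274% in KO.

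Genes of vessel growth went both ways. Of 17 genes of the VEGF, angiopoietin and apelin systems, 5 had an interval above equality and 11 below. The share above, 29.4%, was near the 26.6% of all genes, while 24.7% of all genes lay below. The receptors of EC were lower, with *Flt4* and the apelin receptor *Aplnr* (604 and 399 counts, −1.20, −1.39 to −1.02) called, *Nrp2* at −0.78 (−0.86 to −0.69), *Flt1* at −0.25 (−0.33 to −0.17) and *Kdr* at −0.16 (−0.24 to −0.09). The ligands *Angpt1* (10 and 47 counts) at 1.59 (0.62 to 2.78), *Vegfd* at 1.11 (0.62 to 1.63) and *Vegfa* at 0.46 (0.32 to 0.60) were above equality, and *Vegfc*, the ligand of *Flt4*, was at −0.93 (−1.29 to −0.58).

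The Notch genes were divided as well. *Notch3* was called higher, and its target *Heyl* had 38 and 161 counts, 1.47 (0.96 to 2.03). *Notch1* was at −0.48 (−0.55 to −0.42), and the arterial ligand *Dll4* at −0.50 (−0.69 to −0.32). Of TGF-beta ligands, receptors and SMADs, 21 compared, only *Tgfb3* was called, with 57 and 288 counts, 1.73 (1.32 to 2.17), while *Tgfb1* was at 0.18 (0.12 to 0.23) and the receptors *Tgfbr1* and *Tgfbr2* at −0.43 (−0.56 to −0.31) and −0.15 (−0.20 to −0.09). Of the genes of EC function, *Nos3*, EC nitric oxide synthase, had 264 and 310 counts, −0.37 (−0.61 to −0.13), and *Edn1*, endothelin 1, had 199 and 177, −0.77 (−1.07 to −0.47).

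Genes of senescence and inflammation differed by small amounts. Of 31 secreted factors of the senescence-associated secretory phenotype (SASP), 18 had an interval above equality and 4 below, and the median was 0.27 (0.02 to 0.46). The 2 called higher were *Serpine2*, a protease inhibitor, with 60 and 299 counts, 1.71 (1.31 to 2.14), and *Igfbp6*, with 238 and 985, 1.44 (1.24 to 1.66). *Gdf15* was at 0.60 (0.50 to 0.70), *Il1b* at −0.06 (−0.11 to −0.01) and *Il1a* at −0.79 (−1.0 to −0.57). Of 11 CDK inhibitors and partners, none was called, and the median was 0.12 (−0.26 to 0.51). The 20 p53 targets had a median of 0.03 (−0.09 to 0.24), with *Perp*, a desmosome protein, the single one called (2 and 28 counts).

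Of 25 chemokine ligands, 14 had an interval above equality and 2 below, with a median of 0.28 (0.09 to 0.40). *Cxcl14* had 5 and 101 counts, 3.63 (2.46 to 5.39), and *Cxcl13*, which attracts B cells, had 306 and 58, −2.99 (−3.43 to −2.59). *Cx3cl1* (fractalkine) had 267 and 130, −1.64 (−1.96 to −1.33). Interferon-stimulated genes had 14 of 26 above and 2 below, led by *Ifi44* at 0.97 (0.48 to 1.5) and *Isg15* at 0.93 (0.67 to 1.19), with a median of 0.27 (0.03 to 0.54). These lists were thus higher by far less than the mural and collagen lists, and 26.6% of all genes had an interval above equality.

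Stress and regulatory lists lay near equality. The 17 genes of DNA damage signalling had a median of −0.09 (−0.41 to 0.00), with 1 interval above equality and 4 below, and the 18 NF-kB subunits and feedback genes had 0.03 (−0.07 to 0.24), with 7 above and 4 below. Heat shock and chaperone genes had 5 above and 5 below of 17, near the 26.6% and 24.7% of all genes. Of 22 immediate early genes 14 lay above and 4 below, and of 20 complement genes 12 and 6, with medians of 0.08 and 0.19 and no gene called in either list. Of 21 antioxidant genes only *Sod3*, the extracellular superoxide dismutase, was called, with 88 and 375 counts, 1.48 (1.15 to 1.84). Globin genes were counted in both libraries, *Hba-a1* with 179 and 546 counts, 1.0 on the log2 scale (0.76 to 1.26).

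Metabolic genes also differed by small amounts, and in lists rather than in single genes. Of 34 nuclear genes of oxidative phosphorylation 20 had an interval above equality and none below, against 26.6% and 24.7% of all genes. Their median was 0.25 (0.17 to 0.40). *Ndufv2*, of complex I, was at 0.68 (0.43 to 0.94), and *Cyc1*, of complex III, at 0.62 (0.45 to 0.80). The TCA cycle had 11 of 22 above and 2 below, with a median of 0.18 (0.04 to 0.33), and glycolysis 11 of 23 above and 3 below, with 0.12 (0.01 to 0.23). The 12 mitochondrially encoded genes compared had a median of 0.12 (0.01 to 0.23), and the 13 such genes took 1.73% of the counts in WT and 1.83% in KO. Cytosolic ribosomal protein genes had 32 of 34 above equality and 1 below, with a median of 0.24 (0.19 to 0.29).

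The log2 fold change followed gene length. Its median was 0.16 in the tenth of genes with the shortest length and −0.14 in the tenth with the longest. The part of length in the metabolic and ribosomal lists was not tested beyond removing the trend, after which nuclear oxidative phosphorylation was at 0.15, ribosomal proteins at 0.11 and the mitochondrially encoded genes at −0.08, on the other side of equality.

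Genes of lipid and sterol synthesis were lower. Of 17 genes, 12 had an interval below equality and none above, against 24.7% and 26.6% of all genes. The median was −0.44 (−0.67 to −0.21), with no gene beyond 2-fold. *Hmgcs1*, of cholesterol synthesis, had 284 and 231 counts, −0.90 (−1.16 to −0.65), and *Fasn*, fatty acid synthase, had 1262 and 1204, −0.67 (−0.79 to −0.56). The cholesterol exporter *Abca1* was at −0.62 (−0.67 to −0.57). Of the 20 genes of the HIF system, 6 lay above equality and 9 below, with a median of −0.16 (−0.30 to 0.16). The share above, 30%, was near the 26.6% of all genes, while 24.7% of all genes lay below. *Car9*, carbonic anhydrase 9, was called higher with 5 and 56 counts, 2.79 (1.57 to 4.56), while *Hif1a* was at 0.16 (0.07 to 0.25), *Epas1* (HIF-2 alpha) at −0.27 (−0.33 to −0.21) and *Bnip3* at −0.74 (−1.10 to −0.39).

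Among 938 genes that the deposited table assigns to transcription factor families, 15 were called higher and 15 lower, 1.60% each way against 2.4% and 2.09% of all genes. Those higher included the mural cell factor *Foxs1* (5 and 75 counts), 3.21 (2.02 to 4.97), and the T-box factors *Tbx2* (26 and 144) and *Tbx5*. Those lower included *Prox1*, *Tbx1* and *Hnf4a* (24 and 0 counts, at least 12.2-fold lower). The Hox genes, which mark position along the body, were called both ways: *Hoxc9* (0 and 20 counts) and *Hoxc10* (3 and 30) higher, *Hoxa2* (27 and 5) and *Hoxb2* (23 and 5) lower, of 22 compared. The call of *Hoxc10* is lost with DESeq2 size factors, upper quartile scaling or the gene length trend removed.

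The genes called in VAT were set beside the other KO and WT pairs, which have their own WT libraries. In SAT on HFD 12.9% of genes were called higher and 10.9% lower, in SAT on chow 19.1% and 11.5%, and in muscle 2.76% and 2.01%. Of the 395 genes higher in VAT, 306 could be compared in SAT on chow, where 110 of them (36%) were higher and 27 (8.82%) lower, and these 110 were 3.40% of the genes higher there. In muscle 292 could be compared, of which 59 (20.2%) were higher, which is 12.6% of the genes higher there, and 18 (6.16%) were lower. In SAT on HFD 56 of 243 (23.0%) were higher and 44 (18.1%) lower, and the 56 were 2.75% of the genes higher there. The higher genes of VAT thus included a share of higher genes above the background in each of these pairs. Their share of lower genes was also above the background of lower calls in SAT on HFD and in muscle, and below it in SAT on chow. None of these differences was tested.

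For the genes lower in VAT the calls in the other pairs also went both ways. Of 344, 253 could be compared in SAT on chow, where 21 (8.30%) were lower and 74 (29.2%) higher. In muscle 21 of 268 (7.84%) were lower and 10 (3.73%) higher, and in SAT on HFD 69 of 223 (30.9%) were lower and 57 (25.6%) higher. The genes lower in both made up 1.08% of the lower genes of SAT on chow, 6.16% of those of muscle and 3.99% of those of SAT on HFD.

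The medians of the lists were also set side by side. The median of the mural list was 1.73 in VAT, 1.68 in SAT on chow (0.35 to 2.73), 1.29 in muscle (0.08 to 1.76) and 0.30 in SAT on HFD (−2.66 to 5.41). That of the collagens was 1.29, 2.64, 0.87 and 0.12 in the same order. That of lymphatic EC was −2.20 in VAT, 0.60 in SAT on chow (−1.55 to 3.85), 0.67 in muscle (−1.27 to 2.11) and −0.71 in SAT on HFD (−1.64 to 5.24), and the interval spanned equality in every pair, VAT included. No difference between pairs was tested. *Acta1* was lower in all pairs, with 249 and 42 counts in SAT on chow, 185 and 52 in muscle, and 87 and 17 in SAT on HFD, and *Igha* was higher in SAT on HFD (17 and 295 counts) and muscle (1430 and 3377) but not in SAT on chow (836 and 404).

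**Figure D5:**
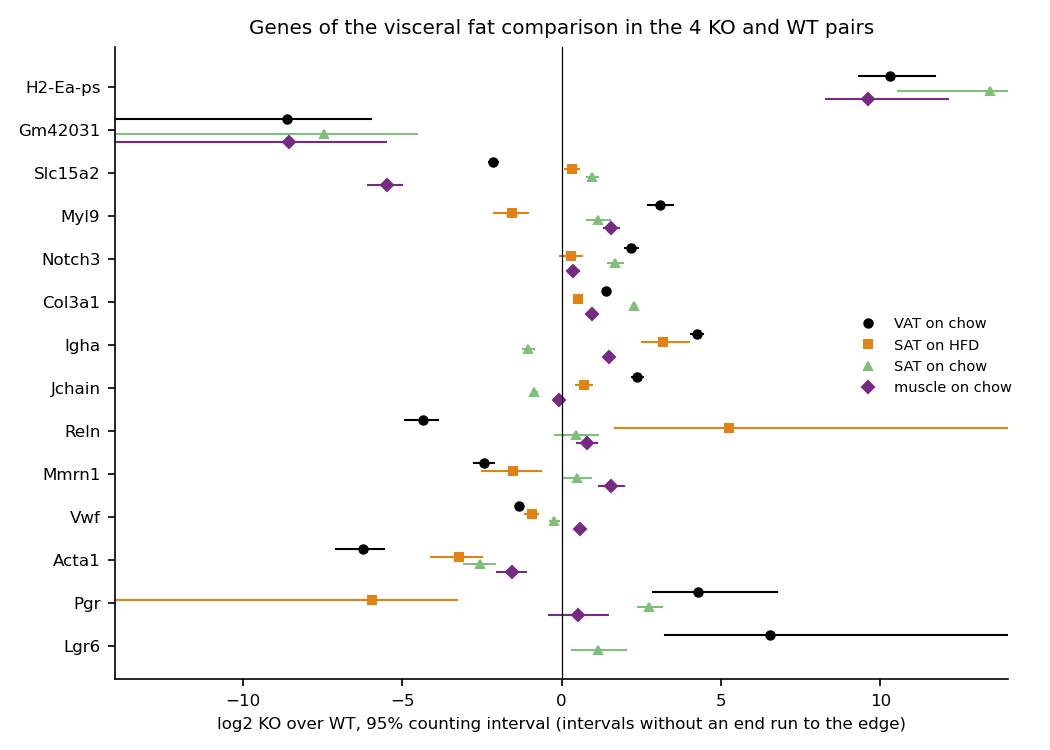
Log2 KO over WT with 95% counting intervals (horizontal axis) for 14 genes of the VAT comparison in VAT (black), SAT on HFD (orange), SAT on chow (green) and muscle (purple); pairs with a mean under 10 counts are left out, and intervals with no end run to the edge. *H2-Ea-ps* and *Gm42031* lie far from 0 on the same side in the chow pairs, while *Reln*, *Slc15a2* and *Igha* change sides between pairs.

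RNA class and quality values of the libraries differed along with these results. Genes of the annotation class TEC, whose transcripts await experimental proof, had a median of −0.37 and sense-intronic genes −0.35, against 0.02 for protein-coding genes, and whether counting used strand is not given in the sources used here. Of 8 nuclear long noncoding RNAs compared, 2 had an interval above equality and 4 below. Reads of Y-linked genes were absent from both libraries, and the labels give females. The part of these values in the differences between the libraries was not tested.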

How the data were processed

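RNAseq was performed by the authors on FACS-sorted GFP+ cells of EC-*Tert*-KO and WT females. Per the labels, RNA was isolated with columns and libraries made with a SMARTER mRNA kit, while the paper's methods name Trizol. The submitters' processing notes name HISAT2 2.0.5 and mm10. The counting program, read length and use of strand are not given in the sources used here. The deposited values are whole-number counts per gene, not normalized. Counts were scaled by TMM (edgeR 4.0.16, R 4.3.3) over all 8 libraries, with factors of 0.959 (WT) and 0.954 (KO), and 3 counts equal 0.333 and 0.219 CPM. Intervals of ratios were computed with scipy and tested on simulated data. They cover counting error only, and reads without molecular identifiers are not independent molecules. For the median of a list, the interval was read from the ordered values of its members.

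Genes were named from the lists (those with bounds furthest from equality, and defining genes), as the 15 protein-coding genes each way with the interval furthest from equality, the 5 each way with the largest CPM difference, and the 5 each way with at least 30 counts in 1 library and 0 in the other. Other named genes, such as *Gm11127*, *Trip13* and the Hox genes, were chosen after their values were seen. The comparison, the lists and the rules were chosen with earlier results of these data known, and 6 of the lists were drawn up after seeing the counts. Of the gene identifiers, 54409 are in GENCODE M21 (GRCm38), 53499 at the same coordinates. A name given to several genes was taken by its first entry.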

Additional observations from a re-analysis of the deposited data

Results flagged for a closer look

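With 1 library per genotype, no group is large enough to look for a library far from the others. Gene lists were singled out where the interval of the median lay on one side of equality in VAT and on the other side in another KO and WT pair. None of these differences between pairs was tested, since each rests on single libraries.

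The median of EC genes, on the log2 scale, was −0.29 in VAT and 0.30 in muscle. T cell genes had 0.34 in VAT, −1.20 in SAT on chow and −0.45 in muscle. Chemokine ligands had 0.28 in VAT and −0.31 in muscle, and interferon-stimulated genes 0.27 in VAT and −0.53 in SAT on chow. Proliferation genes had 0.24 in VAT and −1.23 in SAT on chow, and 11 of the 35 (31.4%) had an interval above equality in VAT, against 26.6% of all genes.

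Metabolic lists differed in the same manner between VAT and SAT on chow: the TCA cycle had 0.18 and −1.14, nuclear oxidative phosphorylation 0.25 and −1.30, and the mitochondrially encoded genes 0.12 and −0.95. Glycolysis had 0.12 in VAT and −0.27 in muscle. Cytosolic ribosomal protein genes had 0.24 in VAT, −0.24 in SAT on HFD, −1.53 in SAT on chow and −0.42 in muscle.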

How the results depend on the processing

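No paired analysis was possible because the labels carry no replicate numbers and each genotype has 1 library, and for the same reason no library could be left out. The numbers of genes called were 395 higher and 344 lower. They were 144 and 66 when genes had to average 50 counts, 831 and 731 for intervals beyond 1.5-fold, and 1350 and 1120 for point estimates beyond 2-fold. With no filter on low counts 521 were higher and 959 lower. Under the other scalings, the larger prior count and removal of the length trend the counts stayed between 359 and 395 higher and between 344 and 393 lower, and the share of higher calls went from 53.5% to between 47.9% and 53.5%. Scaling by totals without immunoglobulin and ribosomal RNA-like genes, chosen after seeing the data, gave 389 and 348.

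Of 55 list medians, 50 stayed inside their interval under every alternative that gave a value. At the filter of 50 counts 2 lists, mesothelial and erythroid, were left with too few genes for a median. The mitochondrially encoded genes moved from 0.12 to −0.078 when the length trend was removed, which also moved nuclear oxidative phosphorylation to 0.15, ribosomal proteins to 0.11 and heat shock genes to −0.068. Upper quartile scaling moved ribosomal proteins to 0.18 and heat shock genes to −0.055. The filter at 50 counts moved skeletal muscle fibre genes to −1.21. Of 194 genes run, those named and every called member of a list, 7 (*Homez*, *Hoxc10*, *Ighv1-42*, *Myocd*, *Zfp354c*, *Zfp668* and *Zfp810*) no longer lay beyond 2-fold under between 1 and 5 alternatives. Depth limits genes near the floor of 3 counts, *Tert* among them, and the spread between mice was not measured.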
